A study of Mus musculus with 32 samples.

Results

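Livers of mice that lack the fatty acid transport protein Fatp2 were compared with livers of wild-type mice after 4 weeks on a ketogenic diet and a 24 h fast. The comparison rests on 8 of the 32 libraries of the study. It holds 4 livers labelled fatp2-/- (KO KD 24 h) and 4 livers labelled wild-type control (WT KD 24 h), chosen by the genotype, diet and fasting labels and not by any measured value. All 8 animals were male C57BL/6 mice killed at 16 weeks of age that had received a ketogenic diet (KD) from 12 weeks of age. Each library was polyA RNA from a slice of whole liver of 1 animal. The other 24 libraries come from the same genotypes on the control diet (CD) or after a 4 h fast, 4 per group. How the Fatp2 allele was made is not given in the sources used here, and the deletion is not stated to be restricted to the liver.

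Fatp2, the product of Slc27a2, brings long-chain fatty acids into hepatocytes and joins very long-chain fatty acids to coenzyme A, the form in which peroxisomes shorten them. During a fast, and on a diet of mostly fat, the liver oxidises fatty acids in mitochondria and peroxisomes and exports ketone bodies made from them. Fatty acids and their derivatives also bind PPARα, a nuclear receptor that induces the enzymes of this route and restrains inflammatory genes of the hepatocyte, among them the acute phase proteins that the liver secretes under interleukin-6 and interleukin-1.

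Total counts of KO KD 24 h libraries ranged from 15638380 to 18791310, all above those of WT KD 24 h libraries, which ranged from 13406678 to 14358249. A gene with 3 counts in a library then lies at 0.169 to 0.231 CPM (counts scaled to the normalised library size), a floor that covers counting error only. Hepatocyte markers such as albumin, summed over 12 genes, reached 59276 to 69801 CPM in KO livers, against 56914 to 82667 CPM in WT livers, so the label liver is borne out. KO KD 24 h replicate 4 stood apart from its group. On a scale over 68 genes that separate the diets in WT livers, with 0 at the CD mean and 1 at the KD mean of each fasting time, it lay at 0.407, whereas the other KO KD 24 h livers lay at 0.962 to 1.02 and the WT KD 24 h livers at 0.960 to 1.03. Livers labelled KO CD 24 h lay at 0.281 to 0.476 in 3 cases and at 0.942 for replicate 4, so each of the replicates numbered 4 lay with the KO livers of the other diet; the labels were used as given. Results are therefore given with and without KO KD 24 h replicate 4 where it decides a call. Sample numbers in the titles form separate ranges for KO and WT, so genotype and any batch marked by these numbers cannot be told apart.

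Slc27a2 itself (ENSMUSG00000027359; chromosome 2, 126552407 to 126588243, plus strand, GRCm38) checks the genotype labels. Its level was 288, 261, 244 and 259 CPM in the 4 KO livers and 1045, 1254, 1499 and 1453 CPM in the 4 WT livers. Every KO library was far below every WT library, and reads remained in all KO libraries. The log2 fold change, KO over WT as everywhere below, was −2.32 ± 0.19 (SE), with an adjusted p of 6.42e-09 from edgeR. KO replicate 4 fitted its genotype label by this gene.

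Of 14438 genes tested, 571 (3.95%) differed between the genotypes. Of these 289 were higher in KO livers, a background of 2.00%, and 282 were lower, a background of 1.95%. The median log2 fold change of all genes was −0.03. Among the genes that were higher were 4 of 18 for fatty acid uptake and activation, 8 of 18 for mitochondrial and 6 of 22 for peroxisomal oxidation, and 9 of 22 glutathione transferases. Among the lower genes were 10 of 27 acute phase proteins, 8 of 23 complement genes, 9 of 18 macrophage markers and 7 of 34 interferon-stimulated genes. An unadjusted p under 0.05, used below where a list held no call, was found for 2772 genes (19.2%). Without KO replicate 4, 205 of the 289 higher and 123 of the 282 lower genes passed again, and all of them kept their sign. In that fit 221 genes were higher (1.50%) and 140 lower (0.952%). The ranges of the 4 KO and 4 WT livers did not overlap for 260 of the 289 higher and 233 of the 282 lower genes, against 6.06% and 5.99% of all genes in each direction. Leaving out other libraries also moved the number of calls, to 266 without KO replicate 1, 278 without KO replicate 2, 226 without WT replicate 2 and 939 without WT replicate 1. With the 8 libraries fitted alone 437 genes passed (3.39%), and DESeq2 called 892.

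**Figure D1:**
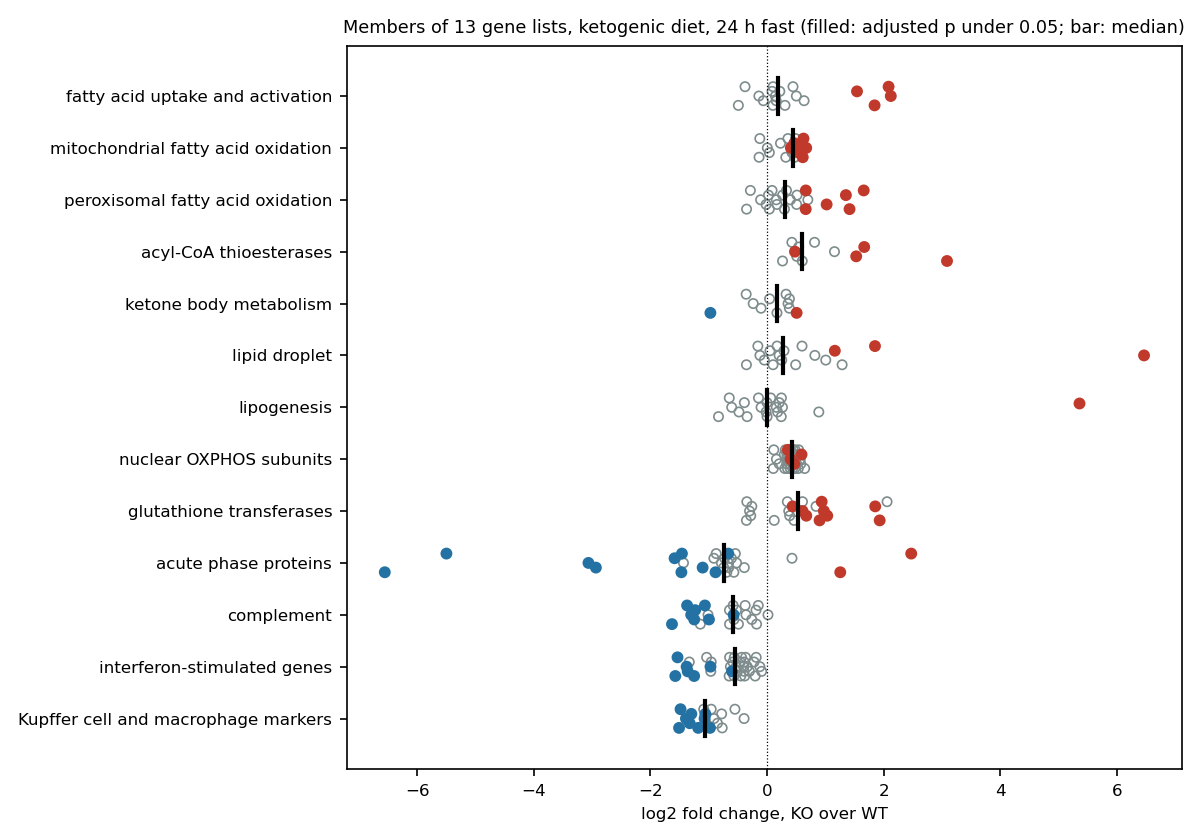
Log2 fold changes (KO over WT, KD, 24 h fast) of every tested member of 13 gene lists. Filled points passed an adjusted p under 0.05, open points did not, and the black bar is the median of the list. The mitochondrial oxidation, thioesterase, glutathione transferase and OXPHOS lists lie mostly right of 0, and the acute phase, complement, interferon and macrophage lists mostly left of it.

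Genes for taking up and activating fatty acids were examined first. Of 18 tested, 4 were higher in KO livers and 0 lower, with a median of 0.19. Cd36, a fatty acid translocase of the cell surface, was at 196, 217, 171 and 211 CPM in KO livers, against 69.5, 62.9, 48.97 and 39.8 CPM in WT livers. Its groups were clearly apart, with a log2 fold change of 1.85 ± 0.30 (SE; adjusted p = 3.93e-04). Slc27a1, which encodes the related transporter Fatp1, was at 114, 94.6, 86.3 and 57.2 CPM in KO livers, against 11.1, 19.9, 28.7 and 23.2 CPM in WT livers, a log2 fold change of 2.09 ± 0.29 (SE; adjusted p = 5.00e-05). Again no KO library reached down to the WT range. Vldlr, a receptor that brings lipoproteins to the cell, had 7.82 to 10.98 CPM in KO livers, against 1.07 to 4.28 CPM in WT livers (log2 fold change 2.12 ± 0.46, adjusted p = 0.00619). Lpl, lipoprotein lipase, had 64.95 to 97.5 CPM in KO livers, against 16.4 to 48.6 CPM in WT livers. Its log2 fold change of 1.54 ± 0.45 was just inside the threshold with all libraries (adjusted p = 0.0465) and missed it without KO replicate 4 (1.62, adjusted p = 0.0709). With any 1 of the 8 libraries left out, 3 or 4 of these 4 genes passed. The sister transporter Slc27a5 of bile acid activation was at 586 ± 17.3 CPM in KO livers, against 525 ± 133 CPM in WT livers (SD, n = 4 each; adjusted p = 0.788), and the acyl-CoA synthetase Acsl1 was at 1638 ± 294 CPM in KO livers, against 1054 ± 328 CPM in WT livers (adjusted p = 0.215).

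**Figure D2:**
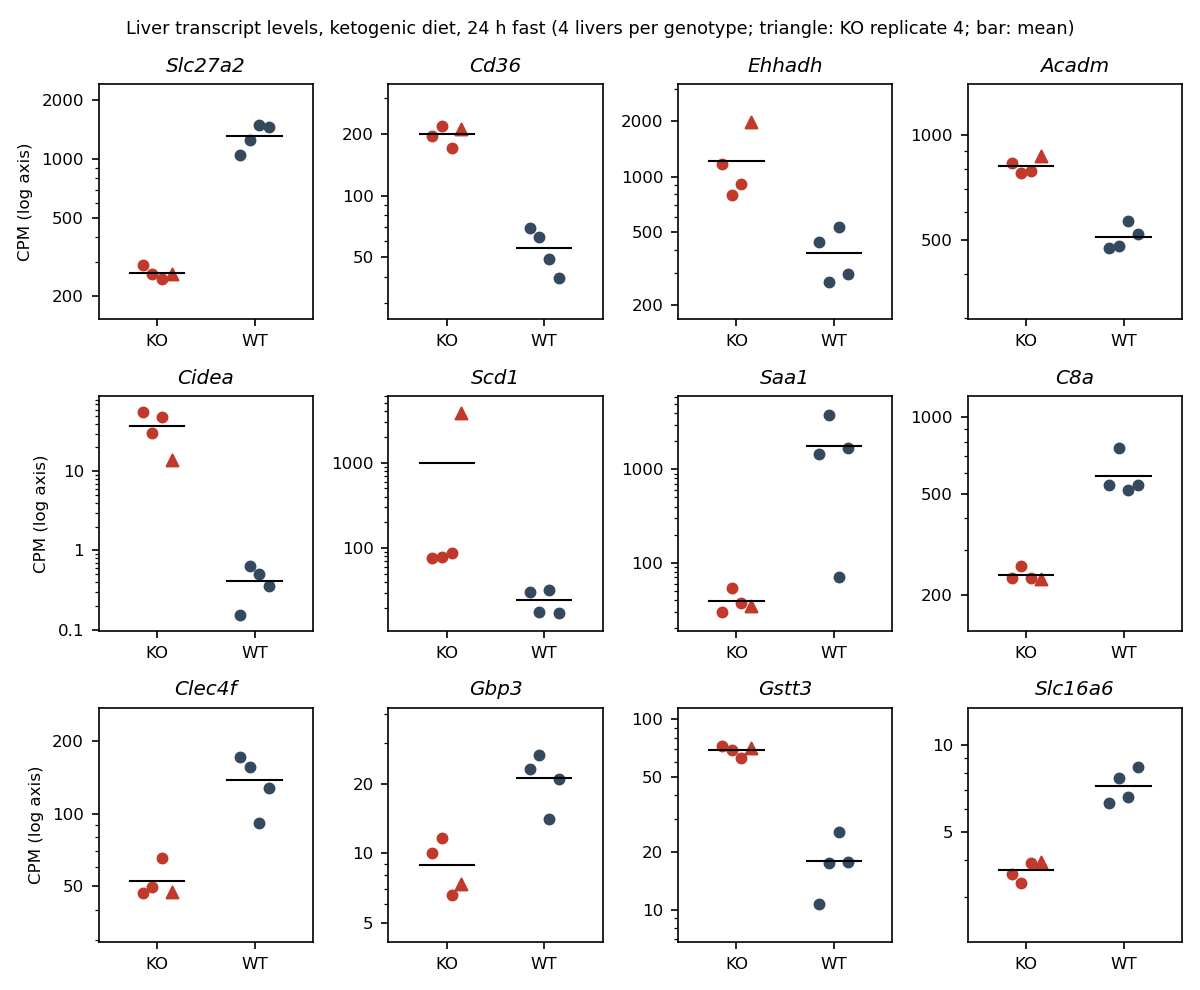
Level in every library (normalised CPM, log axis) of 12 genes, with KO livers left of WT livers and the group mean as a bar. KO replicate 4 is drawn as a triangle. For Slc27a2, Saa1 and Clec4f the KO points all lie under the WT points, for Cd36, Cidea and Gstt3 they all lie above, and for Scd1 the triangle stands far over the other KO points.

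Of 18 mitochondrial fatty acid oxidation genes tested, 8 passed as higher in KO livers and 0 as lower, and the median was 0.45. The increases of these 8 were modest and their groups did not overlap. Acadm, the medium-chain acyl-CoA dehydrogenase that opens the cycle, was at 832, 775, 786 and 869 CPM in KO livers, against 475, 483, 568 and 520.01 CPM in WT livers (log2 fold change 0.67 ± 0.15 SE, adjusted p = 0.00841). Hadh, which carries out the later dehydrogenation, was at 445, 429.5, 352 and 376 CPM in KO livers, against 244, 271, 302 and 286 CPM in WT livers (log2 fold change 0.54 ± 0.15, adjusted p = 0.0438; 0.0548 without KO replicate 4). Eci1, Eci2 and Decr1, the enzymes that handle the double bonds of unsaturated fatty acids, moved together. Their log2 fold changes were 0.60 ± 0.13, 0.63 ± 0.13 and 0.61 ± 0.13, with adjusted p of 0.00716, 0.00374 and 0.00729. Slc25a20, which carries acylcarnitines across the inner membrane, had a log2 fold change of 0.52 ± 0.12 (adjusted p = 0.0147). Cpt1a, the entry enzyme that limits the pathway, did not pass and was at 426, 422, 399.97 and 553 CPM in KO livers, against 313, 506, 715 and 446 CPM in WT livers (adjusted p = 0.796). Cpt2, its partner on the inner membrane, did not pass either (192 ± 40.4 CPM in KO livers, against 142 ± 29.8 CPM in WT livers; adjusted p = 0.357). Between 5 (without WT replicate 2) and 7 of the 8 genes passed with 1 library left out.

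Peroxisomal oxidation, the route for very long-chain fatty acids, showed larger differences in fewer genes. Of 22 tested, 6 were higher and 0 lower, with a median of 0.32. Ehhadh, the bifunctional enzyme of the inducible peroxisomal pathway, was at 1176, 799, 912 and 1973 CPM in KO livers, against 441, 269, 532 and 298 CPM in WT livers. The highest of the KO values was replicate 4, and the log2 fold change of 1.66 ± 0.35 (adjusted p = 0.00555) became 1.33 without it (adjusted p = 0.034). Acaa1b, a thiolase that ends the peroxisomal cycle, was at 1991, 1402, 1499 and 1661 CPM in KO livers, against 620.02, 530.3, 761 and 544 CPM in WT livers (log2 fold change 1.42 ± 0.29, adjusted p = 0.00392). Abcd2, a carrier of very long-chain acyl-CoA into peroxisomes, was at 23.8 to 51.9 CPM in KO livers, against 7.12 to 19.98 CPM in WT livers (log2 fold change 1.35 ± 0.35, adjusted p = 0.0243). Its relative Abcd3 had a log2 fold change of 0.67 ± 0.17 (adjusted p = 0.0271; 0.103 without KO replicate 4). Pex11a, which drives the division of peroxisomes, was at 234, 181, 231 and 249.95 CPM in KO livers, against 127, 102, 94.5 and 117 CPM in WT livers, with no overlap (log2 fold change 1.02 ± 0.21, adjusted p = 0.00513). Nudt19, a coenzyme A hydrolase of peroxisomes, had a log2 fold change of 0.66 ± 0.18 (adjusted p = 0.0333; 0.119 without KO replicate 4). Between 3 (without WT replicate 2) and 6 of the 6 genes passed with 1 library left out.

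Thioesterases, which release free fatty acids from acyl-CoA, had 4 of 11 tested members higher and 0 lower, and all 11 had a positive log2 fold change. Acot3, a peroxisomal member that female livers normally express more than male livers, was at 31.1, 74.6, 27.7 and 34.6 CPM in KO livers, against 7.45, 2.86, 5.37 and 4.15 CPM in WT livers. The largest change of the list was this one, at 3.09 ± 0.56 (adjusted p = 0.00123). Acot2, the mitochondrial form, was at 19.1, 16.9, 12.3 and 36.9 CPM in KO livers, against 4.99, 5.31, 8.13 and 8.29 CPM in WT livers (log2 fold change 1.67 ± 0.36, adjusted p = 0.00682). Acot1, the near-identical cytosolic form that may share reads with it, was at 199, 183, 153 and 374 CPM in KO livers, against 108, 52.8, 104 and 49.9 CPM in WT livers (log2 fold change 1.53 ± 0.37, adjusted p = 0.0159; 0.0803 without KO replicate 4). Replicate 4 was again the highest KO liver for both. Acot12, a cytosolic acetyl-CoA hydrolase, had a log2 fold change of 0.48 ± 0.13 (adjusted p = 0.0345; 0.114 without KO replicate 4). Passing counts with 1 library left out were 2 to 4 of the 4, and the lowest came without KO replicate 4, WT replicate 2 or WT replicate 4. Of 14 Cyp4 fatty acid omega-hydroxylases, 1 was higher, Cyp4a32, at 123 to 171 CPM in KO livers, against 36.96 to 76.6 CPM in WT livers (log2 fold change 1.29 ± 0.36, adjusted p = 0.0355). It may share reads with its close copies, and it passed again in 2 of the 8 fits that leave out 1 library, those without KO replicate 4 and without WT replicate 3. Cyp4a14, the member most used as a marker of PPARα activity, had groups that did not overlap and still did not pass, with 6289.7, 6079, 6011 and 10181 CPM in KO livers, against 2968, 2396, 4165 and 2815 CPM in WT livers (adjusted p = 0.102).

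PPARα targets as a whole, 30 tested genes of which many stand in the lists above, had 9 higher and 0 lower members and a median of 0.52. Not all known targets took part. Pdk4, which restrains glucose oxidation, was at 8.67, 6.39, 7.61 and 13.8 CPM in KO livers, against 8.68, 5.795, 4.57 and 6.72 CPM in WT livers (adjusted p = 0.706). Fgf21, the hormone that the fasted liver makes under PPARα, was at 3.32, 6.39, 3.44 and 12.4 CPM in KO livers, against 9.22, 5.38, 3.41 and 6.94 CPM in WT livers (adjusted p = 0.987). Neither passed. Fgf21 was positive with all libraries (0.02) and negative without KO replicate 4 (−0.49), WT replicate 2 (−0.02) or WT replicate 3 (−0.18). Between 6 (without WT replicate 2) and 9 of the 9 called targets passed with 1 library left out.

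Of the ketone body genes described here, Slc16a6, the carrier through which hepatocytes export ketone bodies, was lower, at 3.604, 3.33, 3.93 and 3.95 CPM in KO livers, against 6.3001, 7.68, 6.602 and 8.44 CPM in WT livers (log2 fold change −0.97 ± 0.14, adjusted p = 7.29e-05). The groups did not overlap, and the call held with any 1 of the 8 libraries left out. Bdh1, which turns acetoacetate into β-hydroxybutyrate, did not pass (log2 fold change −0.24 ± 0.27, adjusted p = 0.673).

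Lipid droplet proteins had 3 higher and 0 lower members of 18 tested, and these 3 passed with any 1 library left out. Cidea, a protein of droplet fusion that is typical of brown fat and of fatty livers, was near the floor in WT livers. It was at 55.9, 30.8, 49.1 and 13.9 CPM in KO livers, against 0.154, 0.628, 0.508 and 0.358 CPM in WT livers. This gap was 6.47 ± 0.74 on the log2 scale (adjusted p = 2.72e-06). It was the second highest among called protein-coding genes with an official symbol, at least 5 CPM and no overlap between the groups. Fitm1, which partitions triglyceride into droplets, was at 86.96, 80.3, 68.9 and 38.95 CPM in KO livers, against 15.1, 21.2, 16.4 and 23.5 CPM in WT livers (log2 fold change 1.85 ± 0.29, adjusted p = 2.03e-04). Hsd17b11, a droplet-bound dehydrogenase, was at 513, 427, 403 and 524 CPM in KO livers, against 218, 186, 222 and 208 CPM in WT livers (log2 fold change 1.16 ± 0.17, adjusted p = 7.12e-05). None of these genes overlapped between the groups. Plin2, the main droplet coat of the hepatocyte, was at 408, 416, 349 and 766 CPM in KO livers, against 323, 358, 323 and 375 CPM in WT livers and did not pass (adjusted p = 0.368). Plin4 did not pass (56.4 ± 18.7 CPM in KO livers, against 31.96 ± 6.297 CPM in WT livers; adjusted p = 0.368).

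Triglyceride synthesis and VLDL assembly had 3 higher and 0 lower members of 20 tested. Mogat1, a monoacylglycerol acyltransferase that is low in normal liver, was at 9.01, 7.29, 6.81 and 7.45 CPM in KO livers, against 0.461, 1.54, 0.2902 and 1.36 CPM in WT livers, all KO values above all WT values (log2 fold change 3.05 ± 0.40, adjusted p = 2.68e-05). Ces1d, a lipase that mobilises stored triglyceride for secretion, was at 583, 602, 512 and 522 CPM in KO livers, against 277, 191, 229.7 and 184 CPM in WT livers (log2 fold change 1.33 ± 0.27, adjusted p = 0.00338). Agpat6, the glycerol-3-phosphate acyltransferase also called Gpat4, had a log2 fold change of 0.60 ± 0.17 (adjusted p = 0.0426) and missed the threshold without KO replicate 4 (adjusted p = 0.157). Of the 8 fits that leave out 1 library it passed in 2, without KO replicate 3 and without WT replicate 1, while Mogat1 and Ces1d passed in all 8. Mttp, which loads lipid onto apolipoprotein B, was at 198 ± 54.3 CPM in KO livers, against 226 ± 60.4 CPM in WT livers (adjusted p = 0.749). It did not pass.

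New synthesis of fatty acids gave a result that rested on a single liver. Scd1, the desaturase that makes oleic acid, was at 76.5, 79.5, 87.7 and 3766 CPM in KO livers, against 31.04, 17.8, 32.4 and 17.2 CPM in WT livers. KO replicate 4 was far above the other KO livers, which were themselves all above the WT livers. With all libraries the log2 fold change was 5.35 ± 1.08 (adjusted p = 0.00374), and without KO replicate 4 it was 1.73 and did not pass (adjusted p = 0.172). No other of the 20 lipogenesis genes tested passed in edgeR with all libraries. Without KO replicate 4 Elovl2, a fatty acid elongase, passed as lower (−0.94, adjusted p = 0.036), and DESeq2 called Me1, the malic enzyme, as higher beside Scd1; both are named after their values were seen. Fasn, the fatty acid synthase, was at 51.1, 86.7, 91.3 and 39.03 CPM in KO livers, against 63.6, 104, 148 and 162 CPM in WT livers (adjusted p = 0.385), and Srebf1, its regulator, was at 157, 183, 156 and 58.1 CPM in KO livers, against 68.1, 96.4, 180.1 and 116 CPM in WT livers (adjusted p = 0.703). KO replicate 4 was the lowest KO liver for both genes and stood well under the other KO livers for Srebf1. Scd1 also differed between the diets in WT livers, with means of 24.6 CPM on KD and 4110 CPM on CD at 24 h. The diet scale was built from genes that separate the diets. The diet position of KO replicate 4 therefore cannot be taken as independent of its Scd1 value. The part of the position in the result was not tested. None of 24 cholesterol synthesis and uptake genes passed in edgeR or DESeq2, and none had an unadjusted p under 0.05. With all libraries 20 of them had a negative log2 fold change and the median was −0.28; without KO replicate 4 the median was −0.01.

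Respiratory chain transcripts gave few calls, all of them higher in KO livers. The share of counts from mitochondrially encoded genes was 10.4, 10.3, 11.01 and 13.4% of the total in KO livers and 10.3, 6.59, 4.94 and 7.98% in WT livers. The lowest KO liver and the highest WT liver were almost level. The means were 11.3 ± 1.43% in KO livers and 7.44 ± 2.25% in WT livers (SD, n = 4 each), and a two-sided exact permutation test gave p = 0.0286, the smallest value that 4 against 4 allows. With the 10 most counted other genes left out of the total the share was 13.2 ± 1.49% in KO livers and 8.81 ± 2.70% in WT livers, and p was 0.0857. With any 1 library left out p was 0.0571, the smallest value that 3 against 4 allows. Of 12 mitochondrially encoded genes tested, 3 passed as higher, 0 as lower and all 12 had a positive log2 fold change. They were the complex I subunits mt-Nd1 (0.97 ± 0.27, adjusted p = 0.04), mt-Nd5 (0.78 ± 0.22, adjusted p = 0.0403) and mt-Nd6 (0.91 ± 0.26, adjusted p = 0.0393) on the log2 scale. Without KO replicate 4 none of the 3 passed, and leaving out any other single library except WT replicate 1 also ended all 3 calls. Among 36 nuclear genes of the same complexes, 4 were higher, 0 lower and 36 positive, with a median of 0.42. Ndufb3 of complex I was at 104, 105, 91.2 and 100.4 CPM in KO livers, against 78.7, 61.1, 50.1 and 75.6 CPM in WT livers (log2 fold change 0.59 ± 0.17, adjusted p = 0.0393; 0.0804 without KO replicate 4). Uqcrc2 of complex III was at 268, 283, 236 and 246 CPM in KO livers, against 165, 208, 205 and 202 CPM in WT livers (log2 fold change 0.41 ± 0.11, adjusted p = 0.0393; 0.0515 without KO replicate 4). Ndufa9 (0.47 ± 0.11) and Ndufs3 (0.36 ± 0.10), both of complex I, were the other members. Their calls were fragile as well, with 0 to 3 of the 4 passing when 1 library was left out, and 0 without KO replicate 2 or WT replicate 2.

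Acute phase proteins, which the liver releases into blood during inflammation, were lower in KO livers. Of 27 tested, 10 passed as lower and 2 as higher, the median was −0.74, and 24 had a negative log2 fold change. Promoters of 3 members that were much lower in KO than in WT livers are shown because they hold the letters TTGCNNAA, a C/EBP motif, on either strand. The sequences are the 250 bases before the transcription start of the RefSeq gene model (GRCm38.p6), from 5′ to 3′ on the strand of the gene, with the motif in capitals. Saa1 lies on chr7:46742981-46743230, minus strand, Saa2 on chr7:46751583-46751832, plus strand, and Lcn2 on chr2:32387740-32387989, minus strand.
Saa1: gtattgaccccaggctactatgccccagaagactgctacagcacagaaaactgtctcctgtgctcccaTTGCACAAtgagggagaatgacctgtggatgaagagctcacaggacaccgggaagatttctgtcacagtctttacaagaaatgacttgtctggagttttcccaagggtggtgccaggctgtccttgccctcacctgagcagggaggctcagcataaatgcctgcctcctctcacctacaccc
Saa2: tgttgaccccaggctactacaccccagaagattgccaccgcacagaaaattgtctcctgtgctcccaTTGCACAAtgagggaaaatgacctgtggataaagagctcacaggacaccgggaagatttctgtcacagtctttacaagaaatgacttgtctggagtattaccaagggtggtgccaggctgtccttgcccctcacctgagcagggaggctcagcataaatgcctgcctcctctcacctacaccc
Lcn2: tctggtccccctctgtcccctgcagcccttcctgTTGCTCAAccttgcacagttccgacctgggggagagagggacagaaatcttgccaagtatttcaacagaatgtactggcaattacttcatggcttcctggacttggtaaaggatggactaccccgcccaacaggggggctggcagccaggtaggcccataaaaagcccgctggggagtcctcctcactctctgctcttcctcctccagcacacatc
The motif began 182 bases before the start in Saa1, 183 bases before it in Saa2 and 216 bases before it in Lcn2. The windows of Saa1 and Saa2 were 94.8% identical over 251 alignment columns with 2 gaps. The motif occurred in 9.56% of 32851 mouse promoter windows, in 13 of 23 acute phase promoters available and in 6 of the 11 of these whose genes passed. Other motifs searched on both strands in the acute phase windows were TTCNNNGAA for STAT factors (7 of 23, against 7.02% of all) and the NF-kB consensus (3 of 23, against 4.11%). A match of letters is a description of the window and says nothing about binding.

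Saa1 and Saa2, which encode the lipoprotein-bound serum amyloid A proteins, had the largest differences of the list. Of the related genes, Saa3 was at 5.69, 6.16, 7.12 and 5.12 CPM in KO livers, against 23.5, 13.2, 5.08 and 23.4 CPM in WT livers (adjusted p = 0.054), and Saa4 had a log2 fold change of −0.57 ± 0.42 (adjusted p = 0.479), so neither passed. Saa1 was at 29.8, 53.6, 37.3 and 34.6 CPM in KO livers, against 1447, 3809.6, 70.7 and 1701 CPM in WT livers. WT replicate 3 was by far the lowest WT liver and still exceeded every KO liver. The log2 fold change was −5.50 ± 0.82 (adjusted p = 1.38e-04). The WT mean of Saa1 was 1757 CPM here, against 68.3 CPM on KD at 4 h, 135 CPM on CD at 24 h and 40.4 CPM on CD at 4 h. In KO livers the means were 38.8, 20.7, 28.2 and 26.5 CPM in the same order, so the level that stood out was that of WT KD 24 h. Saa2, which may share reads with Saa1, was at 5.97, 7.12, 8.41 and 5.701 CPM in KO livers, against 428, 1488, 12.6 and 637 CPM in WT livers (log2 fold change −6.56 ± 0.99, adjusted p = 1.48e-04). Lcn2, an iron-scavenging lipocalin, was at 8.84, 12.9, 13.8 and 8.04 CPM in KO livers, against 21.7, 202, 22.9 and 118 CPM in WT livers (log2 fold change −3.06 ± 0.75, adjusted p = 0.0185; 0.0603 without KO replicate 4). Here WT replicates 1 and 3 were the low WT livers, both still above every KO liver. Orm2, an orosomucoid, was at 1.52, 1.98, 2.89 and 3.22 CPM in KO livers, against 21.8, 18.9, 3.63 and 28.7 CPM in WT livers (log2 fold change −2.94 ± 0.56, adjusted p = 0.0023). Its neighbour Orm1 was at 176, 202, 215 and 340.1 CPM in KO livers, against 858, 814, 261 and 866 CPM in WT livers, groups that overlapped (log2 fold change −1.59 ± 0.29, adjusted p = 0.00145). Itih4, an inhibitor heavy chain of plasma, was at 494, 547, 393 and 538 CPM in KO livers, against 1114, 1836, 1139 and 1369.6 CPM in WT livers (log2 fold change −1.47 ± 0.33, adjusted p = 0.00895). The members that were higher were Hamp2, a relative of the iron hormone hepcidin, and Il1rn, the antagonist of the interleukin-1 receptor. Hamp2 was at 11.1, 15.1, 9.76 and 19.1 CPM in KO livers, against 4.07, 1.75, 2.32 and 1.79 CPM in WT livers (log2 fold change 2.47 ± 0.63, adjusted p = 0.0246; 0.066 without KO replicate 4), and Il1rn had a log2 fold change of 1.26 ± 0.32 (adjusted p = 0.0249; 0.0827 without it). Between 5 (without WT replicate 2) and 12 of the 12 genes passed with 1 library left out, 7 of them without KO replicate 4. Crp did not pass, at 288 ± 59.6 CPM in KO livers, against 413 ± 82.6 CPM in WT livers (adjusted p = 0.162).

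Genes of the cytokine pathways that drive these proteins were mostly lower by sign but rarely passed. Of 30 genes of interleukin-6, interleukin-1 and NF-kB signalling, 2 were lower, 0 higher and 25 negative. Stat3, the transcription factor that relays interleukin-6, was at 62.7, 65.1, 61.6 and 59.8 CPM in KO livers, against 73.7, 139, 124 and 132 CPM in WT livers (log2 fold change −0.91 ± 0.26, adjusted p = 0.0426; 0.101 without KO replicate 4). Irak4, a kinase below the interleukin-1 receptor, had 6.195 to 10.2 CPM in KO livers, against 10.1 to 13.3 CPM in WT livers, ranges that overlapped (log2 fold change −0.60 ± 0.15, adjusted p = 0.0244). Neither passed without KO replicate 1, KO replicate 2, WT replicate 2 or WT replicate 3. Socs3, the feedback inhibitor of this route, was at 9.35, 12.7, 6.81 and 8.77 CPM in KO livers, against 19.98, 15.1, 13.9 and 33.2 CPM in WT livers and did not pass (adjusted p = 0.131).

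**Figure D3:**
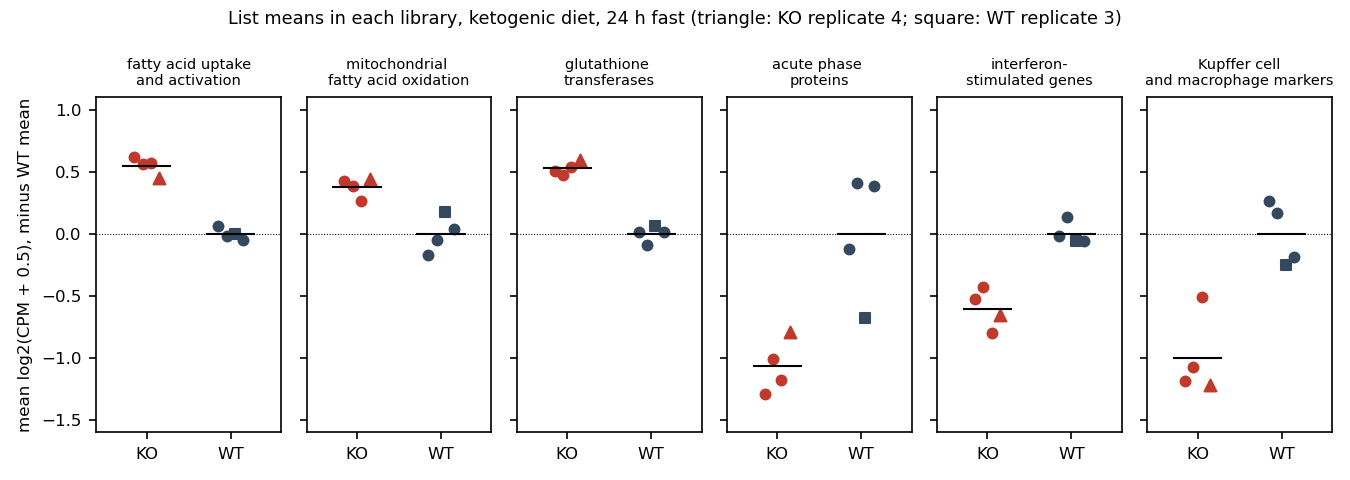
Mean log2(CPM + 0.5) over the tested members of 6 gene lists in each of the 8 libraries, KO livers left of WT livers, as the difference from the mean of the 4 WT livers. KO replicate 4 is a triangle and WT replicate 3 a square. For fatty acid uptake and activation all KO livers lie above all WT livers and for macrophage markers all lie below, while for acute phase proteins WT replicate 3 lies nearest to the KO livers.

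Complement, the plasma protein cascade made largely by hepatocytes, showed the same direction. Of 23 tested, 8 were lower, 0 higher and 22 negative, with a median of −0.58. The list did not hold Cfd, complement factor D, which was counted with the adipocyte markers and passed as higher, as described below. C6, a component of the pore formed on target membranes, was at 75.7, 85.7, 85.5 and 52.6 CPM in KO livers, against 139.8, 236, 357 and 195 CPM in WT livers (log2 fold change −1.63 ± 0.36, adjusted p = 0.0089). C8a was at 233, 259, 232 and 231 CPM in KO livers, against 540.04, 757, 517 and 539 CPM in WT livers (log2 fold change −1.30 ± 0.25, adjusted p = 0.0021). C8b followed with a log2 fold change of −1.07 ± 0.26 (adjusted p = 0.0196; 0.0588 without KO replicate 4), and C9 with −1.23 ± 0.26 (adjusted p = 0.00507). In each of these 4 genes the groups did not overlap. Cfp, properdin, which stabilises the alternative pathway and comes mainly from leukocytes, was at 10.6, 12.1, 18.5 and 10.3 CPM in KO livers, against 37.6, 34.98, 23.4 and 26.7 CPM in WT livers (log2 fold change −1.25 ± 0.26, adjusted p = 0.00535). C5ar1, the receptor for the anaphylatoxin C5a on myeloid cells, was low in both, at 0.339 to 1.02 CPM in KO livers, against 1.02 to 1.72 CPM in WT livers (log2 fold change −1.37 ± 0.39, adjusted p = 0.0414). C3, the central component, was at 2764, 2819.5, 2601 and 2764 CPM in KO livers, against 2101, 4841, 5631 and 3649.5 CPM in WT livers and did not pass (adjusted p = 0.458). Between 4 (without WT replicate 2) and 8 of the 8 genes passed with 1 library left out. Among 23 coagulation genes 1 passed, near the background of 3.95% of all genes. It was Serpina10, the inhibitor of activated factor X, which was at 96.8, 111, 105 and 105 CPM in KO livers, against 175, 207, 123 and 220.1 CPM in WT livers (log2 fold change −0.80 ± 0.17, adjusted p = 0.00511).

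Markers of Kupffer cells and other macrophages, the resident phagocytes of the liver, were lower in KO livers. Of 18 tested, 9 were lower, 0 higher and 18 negative, with a median of −1.06. Their summed level was 327 to 497 CPM in KO livers, against 605 to 952 CPM in WT livers, so the groups did not overlap. Clec4f, a lectin found on Kupffer cells, was at 46.8, 49.7, 65.8 and 47.4 CPM in KO livers, against 173, 157, 91.99 and 128 CPM in WT livers (log2 fold change −1.39 ± 0.22, adjusted p = 2.30e-04). Csf1r, the growth factor receptor on which macrophages depend, was at 15.7, 17.2, 23.5 and 12.6 CPM in KO livers, against 32.1, 49.99, 52.8 and 34.8 CPM in WT livers (log2 fold change −1.30 ± 0.28, adjusted p = 0.00608). Emr1, the gene of the F4/80 antigen, had a log2 fold change of −1.51 ± 0.37 (adjusted p = 0.018; 0.0586 without KO replicate 4). Cd163, the scavenger receptor for haemoglobin, was at 6.36, 10.5, 15.1 and 6.58 CPM in KO livers, against 20.4, 28.6, 26.99 and 20.7 CPM in WT livers (log2 fold change −1.33 ± 0.28, adjusted p = 0.00571). C1qb, a complement subunit that macrophages make, had a log2 fold change of −1.18 ± 0.30 (adjusted p = 0.0223; 0.0804 without KO replicate 4), and Fcgr1, an immunoglobulin receptor, one of −1.48 ± 0.32 (adjusted p = 0.00653). Without KO replicate 4 the number of passing markers was 4, and it was also 4 without KO replicate 1, KO replicate 2 or WT replicate 2. On CD at 24 h 10 of the 18 were also lower, at a background of 1.13%, with a median of −1.20. No marker passed at 4 h on either diet, where the medians were −0.60 on KD and −0.11 on CD. In whole liver, fewer macrophages and less of these transcripts per macrophage cannot be told apart.

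Markers of other cell types give the setting for that result. Neutrophil markers summed to 2.65 to 5.85 CPM in KO livers, against 6.46 to 14.6 CPM in WT livers, with 6 of 10 under 0.5 CPM in all 8 libraries and none of the 3 tested past the threshold in edgeR or DESeq2, though 2 had an unadjusted p under 0.05. Sinusoidal endothelial markers summed to 396 to 501 CPM in KO livers, against 428 to 584 CPM in WT livers. Stellate cell markers lay the other way, at 452 to 548 CPM in KO livers, against 353 to 439 CPM in WT livers, with 14 of 14 positive. No endothelial or stellate marker passed in edgeR, where 2 of 16 endothelial and 1 of 14 stellate markers had an unadjusted p under 0.05; DESeq2 called 0 endothelial and 1 stellate marker. Erythroid markers, a trace of blood, summed to 254 to 871 CPM in KO livers, against 161 to 466 CPM in WT livers. The part of cell composition in the lower acute phase, complement and interferon genes was not tested.

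Interferon-stimulated genes were lower by sign without exception. Of 34 tested, 7 passed as lower, 0 as higher and all 34 were negative, with a median of −0.55. Promoters of 2 of the called members are shown for the core of the interferon-stimulated response element (ISRE), a pair of GAAA half-sites. Oas1a lies on chr5:120907526-120907775, minus strand, and Gbp3 on chr3:142559794-142560043, plus strand, and both windows are the 250 bases before the start of the RefSeq model (GRCm38.p6) with the motif in capitals. In Gbp3 the motif is on the opposite strand, so the capitals show its reverse complement.
Oas1a: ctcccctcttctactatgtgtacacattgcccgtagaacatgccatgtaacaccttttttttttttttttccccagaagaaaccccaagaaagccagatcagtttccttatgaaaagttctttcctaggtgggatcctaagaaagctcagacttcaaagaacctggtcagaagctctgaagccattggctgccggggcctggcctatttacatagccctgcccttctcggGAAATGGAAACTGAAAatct
Gbp3: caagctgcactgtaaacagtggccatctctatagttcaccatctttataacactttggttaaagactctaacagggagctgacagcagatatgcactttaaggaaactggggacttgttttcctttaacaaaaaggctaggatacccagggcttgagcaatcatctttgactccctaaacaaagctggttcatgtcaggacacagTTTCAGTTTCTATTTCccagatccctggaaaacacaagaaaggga
In each window there were 2 overlapping matches, which began 20 and 14 bases before the start in Oas1a and 45 and 39 bases before it in Gbp3. The ISRE core stood in 2.98% of all promoter windows, in 15 of the 26 interferon gene promoters available and in 3 of the 6 of these whose genes passed, Gbp3, Oas1a and Stat2. The C/EBP motif stood in 2 of the same 26 windows.

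Gbp3, a guanylate-binding protein of cell-autonomous defence, was at 9.97, 11.6, 6.57 and 7.38 CPM in KO livers, against 23.05, 26.7, 14.1 and 21.02 CPM in WT livers (log2 fold change −1.25 ± 0.25, adjusted p = 0.00337). Oas1a, a sensor of double-stranded RNA, was at 3.55, 3.39, 1.596 and 2.78 CPM in KO livers, against 12.1, 7.61, 3.19 and 10.1 CPM in WT livers, groups that overlapped at their edge (log2 fold change −1.54 ± 0.33, adjusted p = 0.00619). Its paralog Oas2 was at 1.2999 to 1.69 CPM in KO livers, against 2.76 to 5.66 CPM in WT livers (log2 fold change −1.57 ± 0.37, adjusted p = 0.0138). A pair of transcription factors of the response were also lower. Irf7, which amplifies interferon production, was at 52.8, 54.3, 36.3 and 33.9 CPM in KO livers, against 149, 141, 48.3 and 124 CPM in WT livers (log2 fold change −1.38 ± 0.31, adjusted p = 0.00958). Irf5, which acts below Toll-like receptors and is enriched in myeloid cells, was at 4.17, 3.79, 7.74 and 2.92 CPM in KO livers, against 10.7, 11.4, 15.6 and 10.3 CPM in WT livers (log2 fold change −1.36 ± 0.25, adjusted p = 0.00173). Ifi47, an interferon-induced GTPase, had a log2 fold change of −0.97 ± 0.25 (adjusted p = 0.0249; 0.0896 without KO replicate 4). Between 4 (without WT replicate 2) and 7 of the 7 passed with 1 library left out. Of 16 antigen presentation genes none passed in edgeR or DESeq2, 4 had an unadjusted p under 0.05, as did 19.2% of all genes, and 15 were negative. The shift of the 34 interferon-stimulated genes was not particular to KD at 24 h. Their median was −0.67 on KD at 4 h, −0.38 on CD at 24 h and −0.53 on CD at 4 h. In the same order 6, 3 and 1 were lower, at backgrounds of 0.977%, 1.13% and 0.450%.

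Glutathione transferases, which conjugate electrophiles and lipid peroxidation products, made up a further group that was higher in KO livers. Of 22 tested, 9 were higher and 0 lower, with a median of 0.54. Gstt3 was at 72.1, 68.8, 62.9 and 70.97 CPM in KO livers, against 10.8, 17.6, 25.7 and 17.9 CPM in WT livers, far apart (log2 fold change 1.93 ± 0.24, adjusted p = 1.02e-05). Its relatives Gstt1 and Gstt2 had log2 fold changes of 0.98 ± 0.20 (adjusted p = 0.00513) and 0.94 ± 0.18 (adjusted p = 0.0021). Gsta2, a member of the alpha class, was at 23.4, 16.6, 23.8 and 17.5 CPM in KO livers, against 7.68, 5.73, 4.28 and 4.79 CPM in WT livers (log2 fold change 1.86 ± 0.33, adjusted p = 0.00112). Mgst3, a membrane-bound member, was at 10.5 to 17.9 CPM in KO livers, against 5.45 to 9.99 CPM in WT livers (log2 fold change 1.03 ± 0.26, adjusted p = 0.0238). Gstm6 of the mu class had a log2 fold change of 0.90 ± 0.19 (adjusted p = 0.00535). Members of a class are similar in sequence and may share reads. Between 6 and 9 of the 9 genes passed with 1 library left out, and the 6 came without KO replicate 1, WT replicate 2 or WT replicate 4. Among 13 targets of NRF2, the regulator of antioxidant genes, none passed in edgeR, 3 had an unadjusted p under 0.05, and DESeq2 called 1 higher and 1 lower. Nqo1, a classical target, was at 15.4, 12.7, 12.1 and 8.55 CPM in KO livers, against 5.84, 6.84, 11.2 and 7.22 CPM in WT livers (adjusted p = 0.107).

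Cytochromes and other sex-biased liver genes included the extremes in both directions among the genes ranked as for Cidea above. Cyp2b9, a cytochrome that is normally expressed in female liver, was at 86.8, 89.6, 32.7 and 2.92 CPM in KO livers, against 0.2305, 0.559, 0.218 and 0.0715 CPM in WT livers, though all animals were male. WT livers were at or near the floor, and the log2 fold change was 7.57 ± 1.28 (adjusted p = 5.73e-04). Of 19 female-biased genes listed 9 had enough counts to be tested, and of these Cyp2b9 and Acot3 passed as higher and 0 as lower. Of 19 male-biased genes, all tested, 0 were higher and 2 lower, the complement gene C6 and Moxd1. Moxd1, a monooxygenase-like protein, was at 1.07, 0.565, 0.184 and 0.439 CPM in KO livers, against 16.1, 35.3, 102 and 75.4 CPM in WT livers (log2 fold change −6.61 ± 1.24, adjusted p = 0.00195). This was the lowest log2 fold change among called protein-coding genes with an official symbol, at least 5 CPM and no overlap between groups. These 4 calls held with any 1 library left out. Cyp2b10, the neighbour of Cyp2b9 and the usual marker of the receptor CAR, was at 0.169, 1.07, 2.09 and 1.68 CPM in KO livers, against 0.691, 1.33, 5.22 and 0.858 CPM in WT livers and did not pass (adjusted p = 0.762).

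Secreted factors and the clock gave single results. Enho, the gene of the peptide adropin, was lower, at 11.8, 12.5, 14.4 and 2.41 CPM in KO livers, against 69.2, 33.02, 37.1 and 59.4 CPM in WT livers (log2 fold change −2.26 ± 0.46, adjusted p = 0.00374). Apom, the apolipoprotein that carries sphingosine-1-phosphate, was lower, at 116, 115, 102 and 127 CPM in KO livers, against 177, 173, 182 and 145 CPM in WT livers (log2 fold change −0.55 ± 0.14, adjusted p = 0.0184), and passed in 3 of the 8 fits that leave out 1 library, those without KO replicate 4, WT replicate 1 or WT replicate 4. Nfil3, a repressor coupled to the clock, was the single one of 19 clock genes past the threshold, at 16.8, 12.999, 10.01 and 16.6 CPM in KO livers, against 30.5, 34.4, 23.1 and 31.03 CPM in WT livers (log2 fold change −1.08 ± 0.23, adjusted p = 0.00619). Bckdhb, a subunit of the branched-chain ketoacid dehydrogenase, was the only called gene of 30 in amino acid breakdown and the urea cycle, at 91.3 to 160.5 CPM in KO livers, against 63.1 to 82.7 CPM in WT livers (log2 fold change 0.71 ± 0.14, adjusted p = 0.00338). Mcm6, a subunit of the replicative helicase, was the only called cell cycle gene of 21 and was low throughout, at 1.11 to 2.32 CPM in KO livers, against 2.69 to 3.7004 CPM in WT livers (log2 fold change −1.06 ± 0.22, adjusted p = 0.00435). Of all genes tested 3.95% passed, so 1 call among the clock, amino acid or cell cycle genes is near the background. Of 20 genes of the unfolded protein response of the endoplasmic reticulum none passed in edgeR, although 20 were negative, 8 had an unadjusted p under 0.05 and DESeq2 called 1 as lower. None of 24 genes of gluconeogenesis and glycolysis passed in either tool, and 1 had an unadjusted p under 0.05.

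Across called protein-coding genes with an official symbol, the extremes with at least 5 CPM and no overlap between groups held several members not yet described. Krt23, a keratin induced in stressed liver, was at 25.96, 19.95, 12.7 and 27.3 CPM in KO livers, against 0.922, 0.977, 1.09 and 1.07 CPM in WT livers (log2 fold change 4.39 ± 0.42, adjusted p = 1.15e-07). Gal3st1, which makes sulfated glycolipids, was at 10.4, 10.9, 12.8 and 6.58 CPM in KO livers, against 1.69, 1.396, 0.726 and 1.22 CPM in WT livers (log2 fold change 3.01 ± 0.40, adjusted p = 2.68e-05). Osbpl3, an oxysterol-binding-related protein, was at 14.8, 16.3, 14.3 and 6.07 CPM in KO livers, against 2.07, 1.95, 2.47 and 1.93 CPM in WT livers (log2 fold change 2.61 ± 0.40, adjusted p = 1.72e-04). Slc35f2 (2.54 ± 0.26 on the log2 scale), Adam11 (2.53 ± 0.30) and Eif3j2 (4.44 ± 0.33) completed the higher genes. Eif3j2 may share reads with its near copy Eif3j1, which had a log2 fold change of −0.90 ± 0.18 (adjusted p = 0.00338), so a split of reads between them cannot be told apart from a difference in expression. Among the lower genes, Tff3, a trefoil peptide, was at 0.225, 1.19, 0.798 and 2.48 CPM in KO livers, against 16.7, 4.96, 3.99 and 3.29 CPM in WT livers (log2 fold change −2.66 ± 0.73, adjusted p = 0.0351). WT replicate 1 was far above the other WT livers, and the Tff3 call was kept under 10 of the 16 alternatives described below. Slc37a1, a sugar-phosphate transporter, was at 0.732, 1.13, 1.41 and 1.02 CPM in KO livers, against 4.07, 7.82, 7.04 and 7.08 CPM in WT livers (log2 fold change −2.59 ± 0.32, adjusted p = 6.42e-06). Scara5, a ferritin receptor of mesenchymal cells, was at 6.81, 5.99, 4.85 and 2.85 CPM in KO livers, against 15.4, 28.8, 28.4 and 49.1 CPM in WT livers (log2 fold change −2.56 ± 0.61, adjusted p = 0.0147; 0.057 without KO replicate 4). The amino acid transporter subunit Slc3a1 (−2.30 ± 0.32) and the phospholipid flippase Atp11a (−2.17 ± 0.30) completed the list.

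Cfd, the adipokine adipsin, also named complement factor D, was higher in KO livers although the adipocyte-defining genes were near 0. It was at 15.3, 12.4, 15.2 and 0.0731 CPM in KO livers, against 0.845, 1.89, 0.726 and 1.07 CPM in WT livers, ranges that overlapped (log2 fold change 3.24 ± 0.75, adjusted p = 0.0116). Of the 8 adipocyte markers, 4 were under 0.5 CPM in all 8 libraries (Adipoq, Plin1, Retn and Lep). The summed level of all 8 was 331 to 1159 CPM in KO livers, against 417 to 520 CPM in WT livers, and the lowest KO value was that of replicate 4. Fabp4 reached at most 14.3 CPM in KO and 20.1 CPM in WT livers, and Cidec at most 32.1 and 14.4 CPM. The sum is therefore mostly the level of the remaining marker, Car3, and is not a measure of adipocyte content.

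How far these differences belong to the 24 h fast on KD was asked by testing the difference of fold changes itself. Between the 24 h and the 4 h fast on KD, 37 genes differed in their KO to WT fold change, 22 upwards (0.152%) and 15 downwards (0.104%), together 0.256% of the genes tested. P2ry1, a purinergic receptor, had a log2 fold change of 1.96 ± 0.21 at 24 h and 0.11 ± 0.20 at 4 h, a difference of 1.86 ± 0.29 (adjusted p = 0.00302). It was at 29.004, 26.96, 25.1 and 31.5 CPM in KO livers, against 9.604, 6.21, 7.98 and 5.08 CPM in WT livers after 24 h. Gstt3 likewise had 1.93 ± 0.24 at 24 h and 0.07 ± 0.24 at 4 h, a difference of 1.86 ± 0.34 (adjusted p = 0.0101). On the control diet P2ry1 was also higher in KO livers at 24 h (0.95, adjusted p = 0.0108) and at 4 h (1.14, adjusted p = 0.00116), and Gstt3 at 24 h (1.18, adjusted p = 0.00673), so neither call was confined to KD at 24 h. Slc41a2, a magnesium transporter, had −2.15 ± 0.30 at 24 h and −0.12 ± 0.29 at 4 h (difference −2.03 ± 0.41, adjusted p = 0.0262), and Slc3a1 had −2.30 ± 0.32 at 24 h and −0.14 ± 0.31 at 4 h (difference −2.15 ± 0.44, adjusted p = 0.0263). Slc41a2 was also lower in KO livers on the control diet at 4 h (−1.08, adjusted p = 0.0386). Abcb11, the bile salt export pump, passed in opposite directions, with −0.70 ± 0.20 at 24 h (adjusted p = 0.049) and 0.97 ± 0.21 at 4 h (adjusted p = 0.00554). Its level after 24 h was 212, 197, 201 and 227 CPM in KO livers, against 390.1, 354, 342 and 269 CPM in WT livers, and the difference of fold changes was −1.67 ± 0.29 (adjusted p = 0.00828). The Abcb11 call at 24 h lay at the threshold and was kept in 1 of the 8 fits that leave out 1 library, that without WT replicate 4. Igfbp5, a binding protein of insulin-like growth factors, and Ppp1r1b, a phosphatase inhibitor, had differences of 1.68 ± 0.33 (adjusted p = 0.0242) and 2.22 ± 0.39 (adjusted p = 0.00828). Ppp1r1b also passed in opposite directions, with 0.96 ± 0.28 at 24 h (adjusted p = 0.0488) and −1.26 ± 0.27 at 4 h (adjusted p = 0.00675). The Ppp1r1b call at 24 h was kept under 7 of the 16 alternatives described below. Igfbp5 was called at 24 h (0.92 ± 0.24, adjusted p = 0.0280) and not at 4 h (−0.76 ± 0.23, adjusted p = 0.0723).

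In Nampt, Dsg1c and Sgk2 the genotypes differed after 4 h and did not pass after 24 h. Nampt, the rate-limiting enzyme of NAD salvage, had 0.17 ± 0.15 at 24 h and −1.15 ± 0.15 at 4 h (difference 1.32 ± 0.21, adjusted p = 0.00302). Dsg1c, a desmoglein, had 0.17 ± 0.39 at 24 h and −3.27 ± 0.40 at 4 h (difference 3.44 ± 0.55, adjusted p = 0.00302). Sgk2, a kinase related to SGK1, had 0.53 ± 0.18 at 24 h and 1.79 ± 0.19 at 4 h (difference −1.27 ± 0.26, adjusted p = 0.0262). The differences for Ttc23, Mad2l2, Tubb4b, Unc13b and Tssc1 were 1.12, −0.97, −1.32, −1.52 and −1.15. Unc13b was the reverse case, called as lower at 24 h (−0.84 ± 0.21, adjusted p = 0.0235; 0.0827 without KO replicate 4). At 4 h Unc13b did not pass (0.68 ± 0.21, adjusted p = 0.0737). Saa1 did not pass this test, with −5.50 ± 0.82 at 24 h and −1.73 ± 0.70 at 4 h (difference −3.77 ± 1.00, adjusted p = 0.098). Clec4f, with −1.39 ± 0.22 at 24 h and −0.65 ± 0.21 at 4 h, did not pass it either (adjusted p = 0.28). The number of such genes moved widely with the libraries used, between 10 without WT replicate 4 and 150 without WT replicate 1, and it was 247 without the 4 libraries of other groups that held skeletal muscle transcripts.

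**Figure D4:**
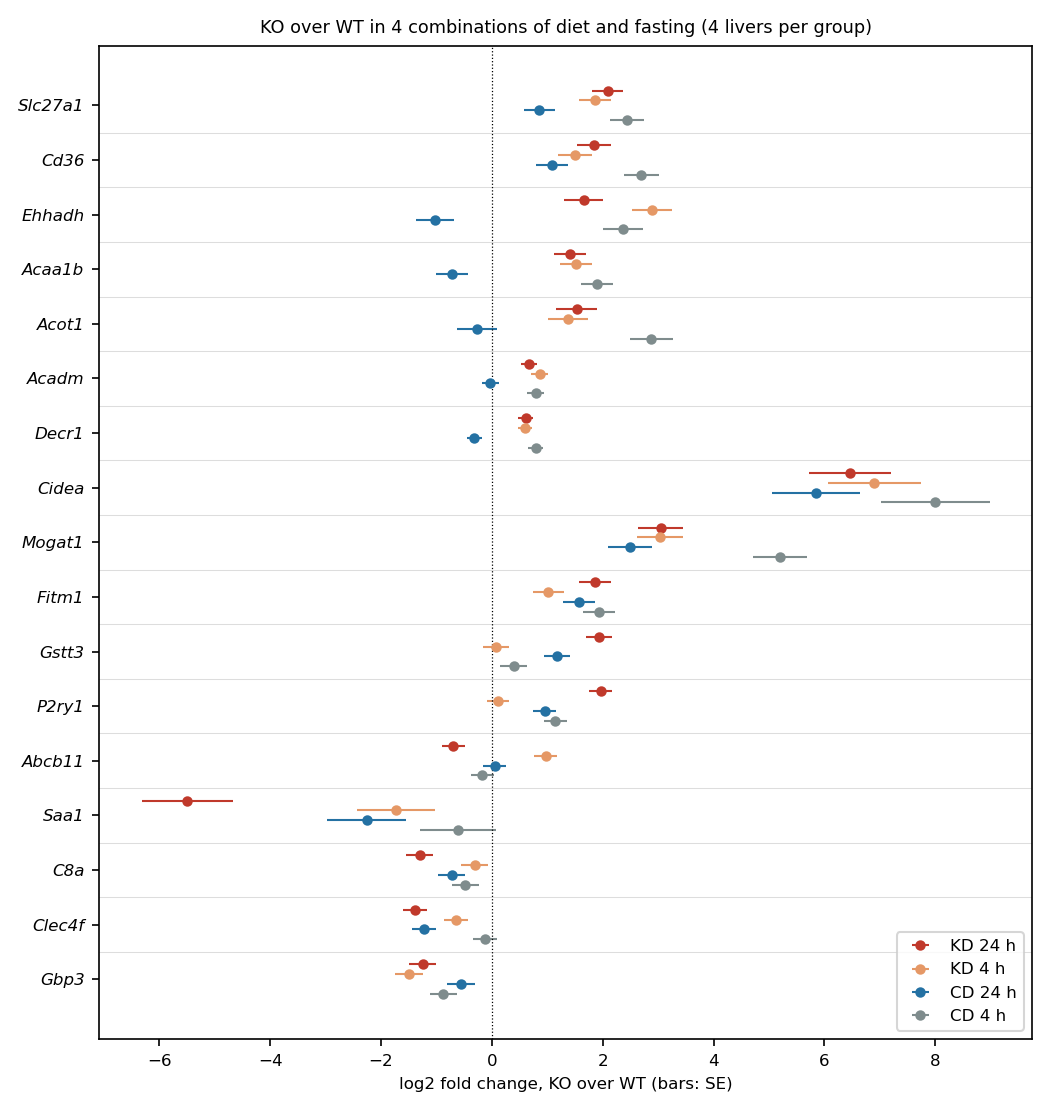
Log2 fold change (KO over WT, points, with SE bars) of 17 genes in the 4 combinations of diet and fasting, KD 24 h in red, KD 4 h in orange, CD 24 h in blue and CD 4 h in grey. Cidea and Slc27a1 lie on the same side of 0 in all 4, Ehhadh and Acaa1b lie below 0 in CD 24 h alone, and Saa1 and Clec4f lie furthest below 0 in KD 24 h.

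Against the control diet after the same 24 h fast, the difference of fold changes passed for 0 genes in edgeR, with 1221 genes at an unadjusted p under 0.05 and 58 genes called by DESeq2. Genes of fatty acid oxidation were nonetheless among those with the smallest p. Ehhadh had a log2 fold change of 1.66 ± 0.35 on KD and −1.03 ± 0.35 on CD (difference 2.69 ± 0.49, adjusted p = 0.0513), and Acaa1b had 1.42 ± 0.29 on KD and −0.72 ± 0.28 on CD (difference 2.13 ± 0.40, adjusted p = 0.0561). Hsd17b11 had 1.16 ± 0.17 on KD and −0.01 ± 0.16 on CD (difference 1.18 ± 0.23, adjusted p = 0.066), and Decr1 had 0.61 ± 0.13 on KD and −0.32 ± 0.13 on CD (difference 0.93 ± 0.19, adjusted p = 0.066). After 4 h on CD, however, Ehhadh (2.36), Acaa1b (1.89), Hsd17b11 (1.38) and Decr1 (0.79) were also called as higher in KO livers. Of 30 PPARα targets, 16 were higher on KD at 4 h, 18 on CD at 4 h and 0 on CD at 24 h. The backgrounds were 1.84%, 1.38% and 0.942%. KO CD 24 h replicate 4, at 0.942 on the diet scale, stood apart from its own group as KO KD 24 h replicate 4 did, and without both libraries the count was again 0. The 0 turned on other libraries as well. Skeletal muscle transcripts (Acta1 above 10 CPM) were present in KO CD 24 h replicates 1 and 2, WT CD 24 h replicate 1 and KO KD 4 h replicate 4, and without these 4 libraries 248 genes passed. Ehhadh was then among them, with a difference of 3.50 (adjusted p = 9.95e-04), as were Acaa1b (2.65, adjusted p = 2.03e-04), Hsd17b11 (1.45, adjusted p = 0.0036) and Decr1 (1.18, adjusted p = 0.00519). That fit rests on 2 KO CD 24 h livers, one of them the liver with the position of the other diet.

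Calls of the KD 24 h comparison were set beside those of comparisons that share no library with it. All were tested in the same fit of the 32 libraries, where the groups share the estimate of spread of each gene. The calls are therefore not independent. Of the 289 higher genes, 77 (26.6%) were also higher in KO livers on KD at 4 h, which is 29.1% of the 265 higher there, a background of 1.84%. On CD at 24 h 64 of the 289 (22.1%) were also higher, 47.1% of the 136 called there at a background of 0.942%. On CD at 4 h the shared number was 96 (33.2%), 48.2% of the 199 called there at a background of 1.38%. Of the 282 lower genes, 23 (8.16%) were also lower on KD at 4 h, 16.3% of 141 at a background of 0.977%. For CD at 24 h the shared lower genes numbered 54 (19.1%), 33.1% of 163 at a background of 1.13%, and for CD at 4 h 21 (7.45%), 32.3% of 65 at a background of 0.450%. Cidea and Mogat1 were called as higher in all 4 comparisons. The fold changes of Cidea were 6.47 ± 0.74 on KD at 24 h, 6.90 ± 0.84 on KD at 4 h, 5.85 ± 0.79 on CD at 24 h and 8.00 ± 0.98 on CD at 4 h (log2, SE). Clec4f was lower after 24 h on either diet (CD: −1.22 ± 0.22, adjusted p = 0.00258) and did not pass after 4 h (KD: adjusted p = 0.104; CD: adjusted p = 1).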

How the data were processed

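Alignment used TopHat2 2.0.12 with Bowtie2 2.2.3, and HTSeq 0.6.1 counted reads per gene on GRCm38 (mm10), per the submitters' processing notes. Neither the strand setting of the counting nor its annotation release is stated, and reads of overlapping antisense genes therefore cannot be assigned. The authors deposited read counts and FPKM values for 35275 genes in 32 libraries. The deposited gene length is in bases and was not used in any test. The deposited FPKM could be recomputed from counts, lengths and totals (100% of values, tolerance 0.1%) and were not used further. A spreadsheet had turned 27 symbols into dates, which were restored by gene identifier; 34490 identifiers matched GENCODE M21 names.

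Counts were tested with edgeR 4.0.16 in R 4.3.3 (quasi-likelihood test, TMM, filterByExpr) fitting 8 group means to all 32 libraries, which left 24 residual degrees of freedom and a common biological coefficient of variation of 0.235. Adjusted p are Benjamini-Hochberg values over the 14438 genes tested, two-sided, with a threshold of 0.05. The SE was derived from the log2 fold change and its F statistic (change over root F). CPM are TMM-normalised. Group levels are mean ± SD of 4 animals. The procedure was tested on simulated data. Replicate numbers follow the order of deposit and pair nothing. Replicates correlated at 0.983 to 0.993 in KO KD 24 h and 0.959 to 0.987 in WT KD 24 h (log2 CPM + 0.5), so no libraries were merged.

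The groups were taken from the labels. The 46 gene lists held 806 symbols, of which 758 passed the filter on low counts; the others got no test. The gene lists and the genes named were chosen with earlier results of these data known. Named genes were Slc27a2, up to 6 called members per direction and list with at least 1 CPM, some well-known members that did not pass, the 12 highest and 12 lowest genes with at least 5 CPM and no overlap, and the 8 per direction with the smallest p in each interaction, of which some are not described. The 12 highest and 12 lowest were taken among called protein-coding genes with an official symbol, which leaves out Gm, Rik and BC names. Interaction genes were also protein-coding with an official symbol and at least 5 CPM. Alternatives were DESeq2 1.42.0, its size factors, other filters, fits of the compared groups alone, and fits without single libraries, without both livers near the other diet or without libraries with muscle transcripts. The fit of the compared groups alone without KO replicate 4 was chosen after seeing the data. Promoter windows came from a RefSeq table (GRCm38.p6) and were matched by symbol. The DR1 direct repeat, to which PPAR binds, met 0.338% of all windows, 1 of 22 PPARα target windows and 0 of the 9 whose genes passed. Results for some genes are not reported here.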

Additional observations from a re-analysis of the deposited data

Results flagged for a closer look

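Among 258 sets of 4 values (the named genes and the mitochondrial share in both groups), 23 had a lowest or highest liver far from the other 3 relative to the range of the set. For independent sets of normally distributed values this rule gives about 1 in 20 sets, or 12.9. The sets here all come from the same 8 libraries, so 23 against 12.9 does not measure an excess over chance. KO replicate 4 was the liver far from the others 8 times. It was highest for Scd1 (3766 CPM), Cyp4a14 (10181 CPM), Cpt1a (553 CPM), Plin2 (766 CPM), Mttp (279 CPM), Gstm6 (67.0 CPM), mt-Nd1 (18402 CPM) and C5ar1 (1.02 CPM). KO replicate 3 was highest for the macrophage genes Clec4f (65.8 CPM) and Emr1 (7.98 CPM) and for Eif3j1 (48.8 CPM). KO replicate 2 was highest for Acot3 (74.6 CPM) and C8a (259 CPM), and KO replicate 1 for Adam11 (57.8 CPM) and Ppp1r1b (7.10 CPM). 

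Among WT livers, replicate 3 was lowest for Orm1 (261 CPM) and highest for Acot12 (163 CPM) and Cyp2b10 (5.22 CPM). WT replicate 1 was highest for Lpl (48.6 CPM), Mgst3 (9.99 CPM) and Tff3 (16.7 CPM), and lowest for Uqcrc2 (165 CPM). WT replicate 2 was highest for C8a (757 CPM).

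The KO over WT fold change differed between the 24 h and the 4 h fast on KD, by edgeR's test of the difference, for 19 of the genes named. The difference in log2 fold change was positive for Cfd (4.47), Dsg1c (3.44), Osbpl3 (2.54), Ppp1r1b (2.22), Gstt3 (1.86), P2ry1 (1.86), Igfbp5 (1.68), Ces1d (1.64), Nampt (1.32) and Ttc23 (1.12). It was negative for Slc3a1 (−2.15), Slc37a1 (−2.07), Slc41a2 (−2.03), Abcb11 (−1.67), Unc13b (−1.52), Tubb4b (−1.32), Sgk2 (−1.27), Tssc1 (−1.15) and Mad2l2 (−0.97). For Osbpl3 the fold change was 2.61 ± 0.40 at 24 h and 0.07 ± 0.35 at 4 h, and for Slc37a1 it was −2.59 ± 0.32 at 24 h and −0.52 ± 0.30 at 4 h. Cfd had 3.24 ± 0.75 at 24 h and −1.23 ± 0.68 at 4 h, and Ces1d had 1.33 ± 0.27 at 24 h and −0.31 ± 0.26 at 4 h. On the control diet edgeR also called Osbpl3 as higher in KO livers at 4 h (2.45, adjusted p = 7.69e-04). It called Slc37a1 as lower there at 24 h (−1.12, adjusted p = 0.0473), so neither call was confined to KD at 24 h.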

How the results depend on the processing

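Of 99 named genes that passed in the KD 24 h comparison, 52 passed with the same sign under all 16 alternatives, and none of the 99 changed sign under any of them. The Slc27a2 call was kept in all 16. The 571 genes that differed became 373 with no filter on low counts, 892 with DESeq2, 374 without both livers near the other diet, 363 with the compared groups alone and without KO replicate 4, 960 without the 4 libraries with muscle transcripts (all in other groups), and 226 to 939 with 1 of the 8 libraries left out. The 37 genes whose genotype difference changed with fasting became 178 with DESeq2, 65 with the compared groups alone, 99 with these and without KO replicate 4, 63 without both livers near the other diet, 247 without the libraries with muscle transcripts, and 10 to 150 with 1 library left out. The 0 genes whose difference changed with diet became 3 with the size factors of DESeq2, 4 with no filter, 4 with a stricter filter, 58 with DESeq2, 248 without the libraries with muscle transcripts, and 0 to 7 with 1 library left out. The mitochondrial share differed by 4.38 percentage points (exact p = 0.0857) without the 10 most counted other genes in the total, and by 3.00 to 4.77 (exact p = 0.0571) with 1 library left out, where 3 against 4 allows no smaller p. The cause of these shifts was not tested. Sign changed for genes that had not passed. Fgf21 went to a log2 fold change of −0.49 without both livers near the other diet and −0.50 with the compared groups alone and without KO replicate 4. With 1 library left out it ranged between −0.49 and 0.28, Cpt1a between −0.29 and 0.10, Cyp2b10 between −1.07 and 0.36, and Dsg1c between −0.072 and 0.44.

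No paired analysis was possible because the labels give no replicate numbers and nothing that ties a KO liver to a WT liver. With 4 livers per group, 1 KO liver that stands apart, and a batch that cannot be told apart from genotype, small differences remain uncertain. Genes under about 0.2 CPM are at the floor of 3 counts.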

Other observations

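Several gene groups gave few or no calls. Of 14 heat shock genes none passed in edgeR or DESeq2, and 2 had an unadjusted p under 0.05, which 19.2% of all genes had. The growth hormone and insulin axis had 0 of 17 genes past the threshold in both tools and 2 with an unadjusted p under 0.05. Among 22 genes of the ATF4 stress response Vldlr was the single one that passed in edgeR, and among 21 bile acid genes it was Abcb11. Both counts are near the background of 3.95% of all genes. Lymphocyte markers (12 tested) and cholangiocyte markers (6 tested) held no gene past the threshold in either tool and none with an unadjusted p under 0.05.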
